A study of Salix viminalis with 12 samples.

Results

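Suberin biosynthesis was examined through 9 Arabidopsis genes whose codes could be carried by contigs of a root transcriptome of *Salix viminalis*. The genes were taken by code from the annotation of that transcriptome, in which each contig lists the Arabidopsis gene model of its match, and the dot suffix of the gene model was dropped. Of the 9 genes, 6 were carried by at least 1 contig, and together they held 15 contigs of the 64173 contigs with a code. FAR4, FAR1 and KCS20 were carried by 0 contigs. The whole annotation covers 86843 contigs, and its codes belong to 13764 Arabidopsis genes.

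The roots came from cuttings of a single *S. viminalis* individual, so that all plants share a genotype. Each of 4 groups gave 3 libraries, 12 in all. CT plants (control soil, temperate) had unspiked soil at 23 °C by day and 20 °C by night. CC plants (control soil, cold acclimated) had the same soil but 7 °C by day and 5 °C by night. Soil spiked with Cd (1.5 ppm), Cu (175 ppm), Ni (30 ppm) and Zn (500 ppm) was given to the metal-polluted groups, MT at the temperate and MC at the cold setting. The cold followed 40 days on the soil and lasted 4 weeks, and the sample labels give 22 °C and 4 °C in place of the temperatures of the growth protocol. The annotation describes a single assembly of all 12 libraries and has 0 columns with a value per library. The table therefore gives no depth of a library, and a contig count gives the number of assembled coding sequences and not a level of expression. CC, MT and MC were not compared with CT, and no test was made.

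Suberin is a polyester of fatty acids, glycerol and ferulic acid that is laid down with waxes in the walls of endodermal and periderm cells of roots, where it limits the passage of water, gases and ions. Its monomers are made by elongating fatty acyl-CoA, oxidising the far end of the chain, reducing part of the acyl chains to fatty alcohols, joining acyl chains to glycerol, and adding ferulate to hydroxylated chains. The monomers are then exported and joined in the wall. The roles given below are those known from Arabidopsis, and no role was examined in willow.

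The acyl-CoA elongation step was covered in part. KCS2 (AT1G04220), a 3-ketoacyl-CoA synthase that lengthens acyl chains for suberin, was carried by 3 contigs, 1 from each of the first Trinity assembly, the second Trinity assembly and the assembly made with CLC Genomics Workbench. It was the only gene among the 9 with a contig of all 3 assemblies, a pattern shared by 25.9% of all matched genes. Its Trinity contigs lay in 2 components, which are groups of contigs that share an assembly and a component number in their names. In 1 of them, contigs of AT5G49970 (PDX3, an enzyme of vitamin B6 metabolism) carried the same component number, but in another cluster of it. KCS20 (AT5G43760), the close relative of KCS2 that acts redundantly with it in root suberin, was carried by 0 contigs. Whether willow transcripts of a KCS20 type lie among the contigs of KCS2 was not tested.

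Oxidation of the chain end had contigs for both of its genes. CYP86A1 (AT5G58860, also HORST), the root omega-hydroxylase of long fatty acids, had 2 contigs, both from CLC. It had 0 contigs under a name of either Trinity assembly, which held for 14.9% of all matched genes. CYP86B1 (AT5G23190, also RALPH), which hydroxylates the very long chains, had 3 contigs, 2 from CLC and 1 from the second Trinity assembly. The hydroxylases therefore held 5 of the 15 suberin contigs, and 4 of these 5 were CLC contigs.

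Acyl transfer to glycerol was also covered by both genes, although unequally. GPAT5 (AT3G11430), the acyltransferase needed for root and seed coat suberin, had 3 contigs, 2 from the first Trinity assembly and 1 from CLC. Both of its Trinity contigs belonged to the same Trinity gene, a group of transcripts that Trinity places at a single locus. Of these, 1 was the second coding sequence predicted on its transcript, whereas the other 14 suberin contigs were first coding sequences. GPAT8 (AT4G00400), known mainly for cutin of the shoot, had 1 contig, from the first Trinity assembly.

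Feruloyl transfer was represented by AT5G41040 (ASFT), which attaches ferulate to omega-hydroxy fatty acids and fatty alcohols. It had 3 contigs, 2 from the first Trinity assembly and 1 from CLC. The 2 Trinity contigs shared a DN number but lay in different clusters of it, and thus in different Trinity genes. The table lists these contigs only as an HXXXD-type acyl-transferase family protein with no symbol, so that a search for ASFT by symbol found 0 contigs.

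The reduction of acyl chains to fatty alcohols had no contig under either of its genes among the 9. FAR4 (AT3G44540) and FAR1 (AT5G22500), reductases that make saturated primary alcohols of suberin, were each carried by 0 contigs. The symbol FAR1 did occur in the table, on 4 contigs, but all of them carried AT4G15090, the far-red-impaired response transcription factor, which is another gene with the same symbol. An assignment by symbol in place of code would thus have given 16 contigs, of which 12 were on the intended genes and 4 on this transcription factor, and would have missed the 3 contigs of ASFT.

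**Figure D1:**
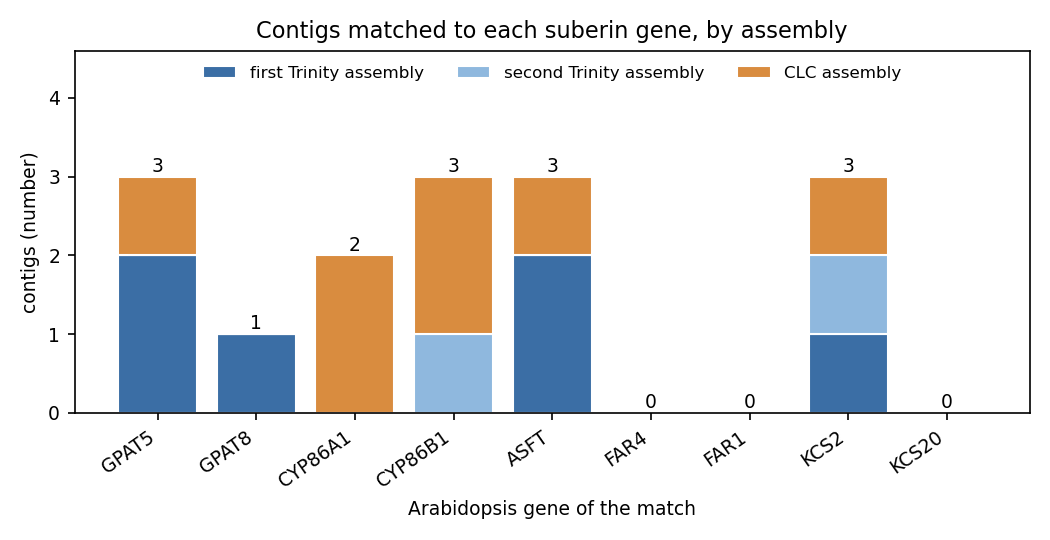
Number of contigs (vertical axis) matched to each of the 9 suberin genes (horizontal axis), with the colours of each bar giving the assembly named in the contig. GPAT5, CYP86B1, ASFT and KCS2 reach 3 contigs, CYP86A1 has 2 contigs, both from CLC, GPAT8 has 1 contig, and FAR4, FAR1 and KCS20 have 0 contigs.

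The 6 genes with a contig varied little, between 1 and 3 contigs. Each was at or below 3 contigs, and their median was 3 contigs, the same as the median of 3 contigs over all matched genes, whose quartiles were 2 and 5. Over all 9 listed genes the median was 2 contigs. None of the 9 had 4 or more contigs, which 41.5% of all matched genes had, and 5 of the 6 with a contig had 2 or more, as did 77.7% of all matched genes. The number of matched genes includes no gene at 0, so that the shares do not apply to FAR4, FAR1 and KCS20. The highest count of any gene in the table was 525 contigs, far outside the range of the suberin genes.

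**Figure D2:**
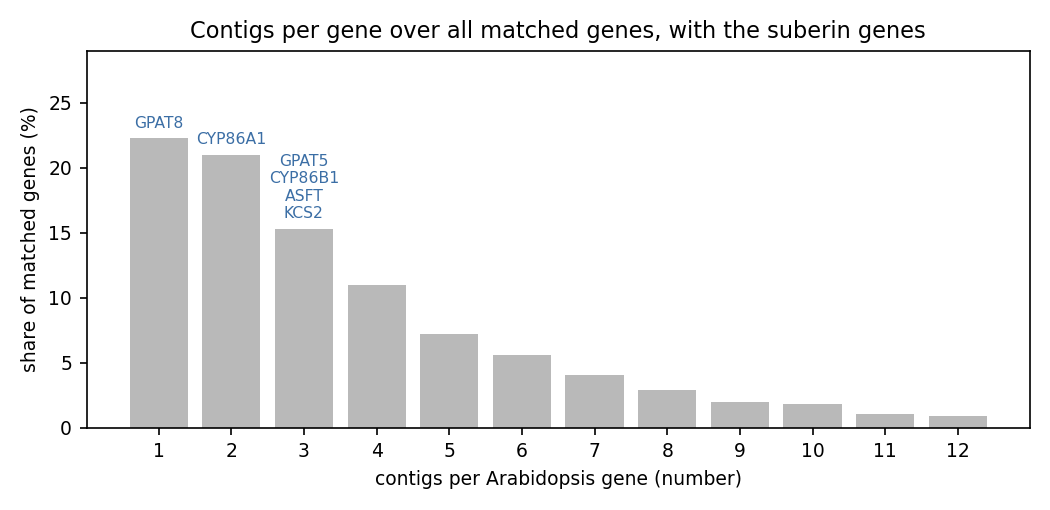
Share of all 13764 matched Arabidopsis genes (vertical axis, %) by the number of contigs per gene (horizontal axis, shown up to 12 contigs), with the names of the 6 suberin genes above the bar of their count. The suberin genes sit at 1, 2 and 3 contigs, at or below the median of 3 contigs.

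The origin of the contigs was read from their names. CLC gave 7 of the 15 suberin contigs (46.7%), against 25.8% of all contigs with a code. The first Trinity assembly gave 6 suberin contigs (40.0%), against 52.9%, and the second gave 2 suberin contigs (13.3%), against 21.4%. With 15 contigs, some of which may derive from the same locus, these shares are a description, and the assembly of origin is the name left after similar sequences were collapsed. CLC contigs alone covered 5 of the 9 genes, the first Trinity assembly 4 genes and the second Trinity assembly 2 genes. Each of the 15 contigs lay on a parent transcript of its own, and none of these transcripts carried another coding sequence in the table. The 8 Trinity contigs fell into 7 Trinity genes and 6 components, the latter counted by DN number. Trinity genes were numbered per assembly, and a locus assembled in each run would thus count more than once.

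The genes of the same enzyme classes show where the other contigs of each class were placed. The list of 68 further genes held relatives of the 9 genes, among them genes of cutin and wax formation, as well as other elongase subunits, exporters, transcription factors and genes of the Casparian strip. Of these 68 genes, 38 (55.9%) had a contig, with a median of 3 contigs, against 6 of the 9 suberin genes (66.7%).

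Among fatty acyl reductases, FAR3 (AT4G33790, also CER4), the reductase of wax alcohols in the shoot, had 12 contigs and FAR2 (AT3G11980, also MS2), which acts in the pollen wall, had 3 contigs. FAR5, FAR6, FAR7 and FAR8 had 0 contigs. Their place among the further genes does not mean that they have no part in suberin. All 15 contigs of the class were thus named after 2 genes outside the 9 suberin genes. As many contigs as FAR3 or more were held by 5.80% of all matched genes. Which willow reductases these contigs encode was not tested.

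Among the 21 listed 3-ketoacyl-CoA synthases, 11 had a contig. KCS11 had 6 contigs and KCS12 had 5 contigs, and KCS2 came next with 3 contigs. KCS4 and KCS7 had 2 contigs each, and KCS1, KCS5, KCS6, KCS10, KCS15 and KCS19 had 1 contig each. KCS1, which is broadly active in wax synthesis, and KCS6 (also CER6), the main synthase of shoot wax, thus had fewer contigs than KCS2.

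Among the other omega-hydroxylases, CYP86A8 had 2 contigs, whereas CYP86A2, CYP86A4, CYP86A7 and CYP86B2 had 0 contigs. The CYP86 family therefore held 7 contigs in the table, 5 of which belonged to the suberin genes CYP86A1 and CYP86B1. Among the glycerol acyltransferases, GPAT1 had 3 contigs and GPAT6, a cutin gene of flowers, had 2 contigs. GPAT4, which acts with GPAT8 in cutin, and GPAT7, the closest relative of GPAT5, had 0 contigs. The table describes 6 genes with 14 contigs as glycerol-3-phosphate acyltransferases, and the remaining contigs lay on GPAT9 (AT5G60620, 4 contigs) and GPAT3 (AT4G01950, 1 contig), which were not listed and are named after their counts were seen.

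ASFT belongs to a large family of acyltransferases with an HXXXD motif. The table describes 24 genes with 87 contigs in this way, with a median of 2 contigs and up to 17 contigs for AT3G26040. DCR, an acyltransferase of cutin formation, had 3 contigs like ASFT, while FACT and DCF, the closest relatives of ASFT that make alkyl caffeates and cutin ferulates, had 0 contigs.

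**Figure D3:**
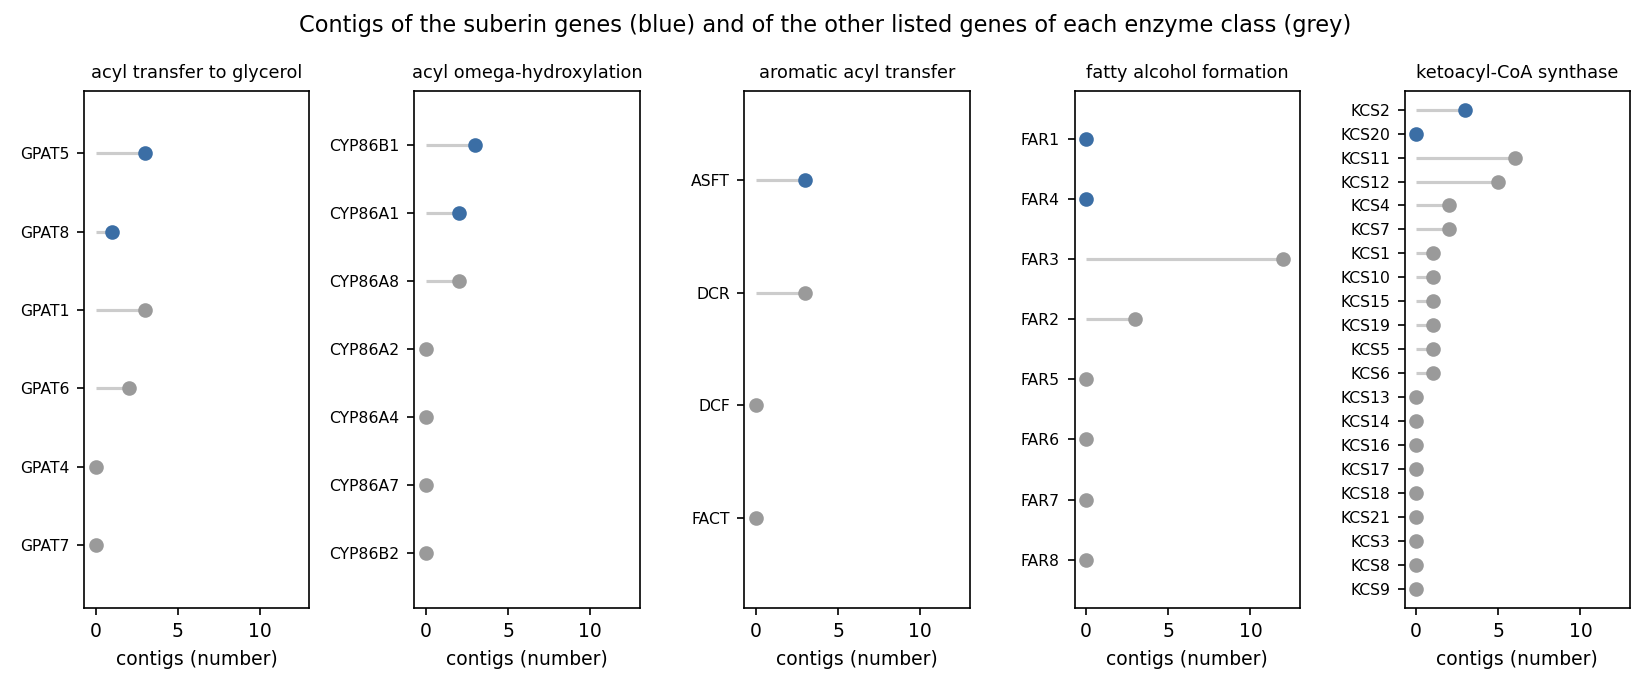
Number of contigs (horizontal axes) of each listed gene in the 5 enzyme classes of suberin synthesis. The 9 suberin genes are in blue and the further listed genes in grey. In 4 classes at least 1 of the 9 has contigs. In fatty alcohol formation the contigs lie on FAR3 (12 contigs) and FAR2 (3 contigs), and FAR4 and FAR1 are at 0.

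The steps around monomer synthesis were covered to different extents. All 4 listed genes that complete the elongase or activate fatty acids had contigs, namely LACS2, a long-chain acyl-CoA synthetase, with 8 contigs, KCR1 and PAS2, the ketoacyl reductase and the hydroxyacyl dehydratase of the elongase, with 7 contigs each, and CER10, its enoyl reductase, with 3 contigs. Of the exporters, ABCG2 and ABCG16, which are among the ABC transporters needed for root and pollen wall polyesters, had 3 contigs each, and so did LTPG15, a lipid transfer protein of seed coat suberin. ABCG1, ABCG6 and ABCG20 had 0 contigs.

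Of 11 transcription factors linked to suberin or the endodermis, 6 had a contig. MYB36, which switches on the Casparian strip genes, had 11 contigs, the most in this group. ANAC038 had 4 contigs, MYB9 and MYB93 had 3 contigs each, ANAC058 had 2 contigs, and MYB92 had 1 contig. MYB41, MYB39, MYB53, MYB107 and ANAC046 had 0 contigs, although MYB41 is known for switching on suberin genes under stress.

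Genes that mark or pattern the endodermis, the main suberised tissue of young roots, were also looked up. Of 9 genes of endodermal identity and of the Casparian strip, 8 had between 1 and 6 contigs. SHR, a transcription factor transcribed in the stele whose protein moves into the endodermis, had 6 contigs and is thus no marker of endodermal transcripts. SCR, its partner in the endodermis, had 3 contigs. PER64, a peroxidase of the Casparian strip, had 3 contigs, and ESB1, a dirigent protein of the strip, and the receptor SGN3 had 2 contigs each. Of the CASP scaffold proteins of the strip, CASP2 had 2 contigs, and CASP1 and CASP5 had 1 contig each. CASP4 had 0 contigs and was the gene without a contig. SGN1, a kinase of the pathway that monitors the strip, was listed beside these genes and had 6 contigs.

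**Figure D4:**
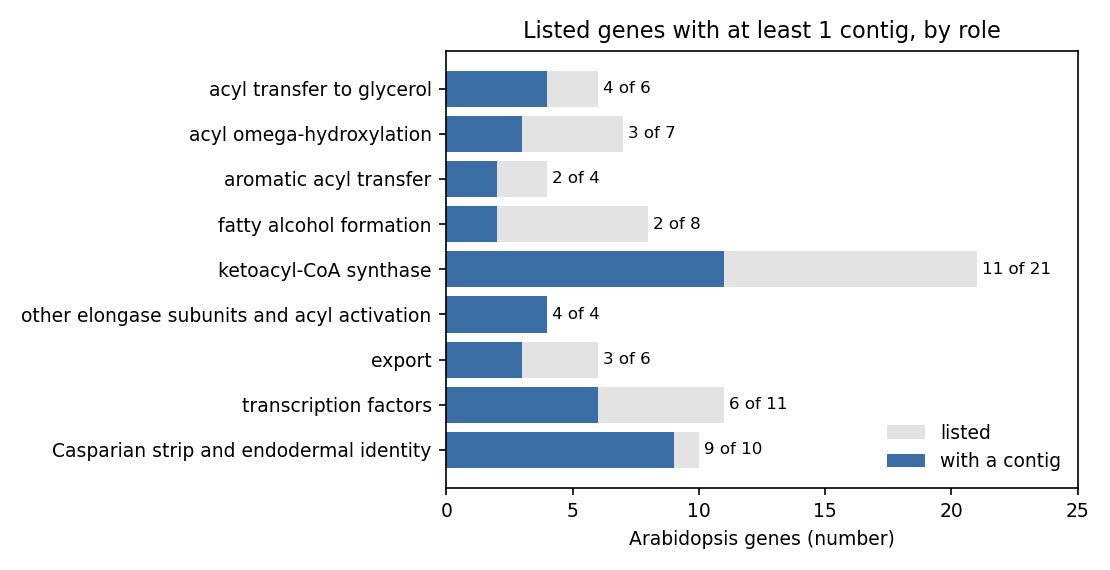
Number of listed Arabidopsis genes (horizontal axis) in each role of suberin and endodermal barrier formation (vertical axis), with the full bar giving the genes listed and the blue part those with at least 1 contig. The classes range from 2 of 8 genes for fatty alcohol formation to 4 of 4 for the other elongase subunits and acyl activation, and 9 of 10 for the Casparian strip and endodermal identity.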

How the data were processed

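The authors trimmed the reads of the 12 libraries in CLC Genomics Workbench, built assemblies with CLC and Trinity, merged them, took coding sequences from TransDecoder and reduced redundancy with cd-hit-est. Top hits against the *S. purpurea* transcriptome gave the annotation. The deposited table holds names and text in 5 columns (contig, parent transcript, Arabidopsis gene model, symbols and description), with no counts of reads, lengths, sequences or match scores. The submitters' processing notes name edgeR (v. 3.28.1), whose output was not used here.

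Contigs were counted per Arabidopsis gene. Contig names gave the assembly, Trinity gene and component, and any name not of the Trinity form was counted under CLC. All 9 members and every gene of the pathway list could be named, except for a listed gene that is not reported here. The members and lists were chosen with earlier results of these data known, and the gene families found by description were added after the table was seen. Gene names follow Arabidopsis usage where the table gives none. Counting was tested on simulated data. Python (v. 3.11.15), NumPy (v. 2.4.6) and matplotlib (v. 3.10.9) were used. The alternatives were other units of counting, single assemblies, a minimum of 2 contigs and assignment by symbol. No sequence or genome coordinate of the contigs was used here.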

Additional observations from a re-analysis of the deposited data

How the results depend on the processing

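The suberin genes held 15 contigs on 15 parent transcripts, and the 8 contigs with a Trinity name lay in 7 Trinity genes. By assembly, 6 contigs came from the first Trinity assembly, 2 from the second and 7 from CLC, which are fewer by construction. Genes with a contig numbered 6 in the whole table, 4, 2 and 5 in these assemblies in turn, and 5 with a minimum of 2 contigs. The median per matched gene was 3 contigs, 3 parent transcripts and, over Trinity contigs alone and thus without CYP86A1, 1 Trinity component, and within the assemblies 1.5, 1 and 1 contigs. Of the 68 further genes, 38 had a contig, 29, 10 and 28 in the assemblies in turn, and 29 with at least 2 contigs. Assignment by symbol gave 16 contigs. Other settings of assembly, redundancy removal or annotation were not tried, and a gene at 0 may have transcripts named after a relative, which was not tested. No paired analysis was possible because no column gives values by library, and so edgeR, DESeq2 and the replicate block were not run.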

Other observations

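GDSL-type esterases and lipases, a large family of which some members join or break down suberin in Arabidopsis roots, were found by their description after the table had been seen. They comprised 28 genes with 90 contigs, with a median of 2 contigs, a maximum of 15 contigs and 7 genes with 4 or more contigs. The description does not say which of them act on suberin, and none of the 9 suberin genes belongs to the family.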
